A study of Mus musculus with 2 samples.

Results

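The microRNA hairpins studied here are Mir764, Mir1912, Mir1264, Mir1298 and Mir448, which lie in introns of Htr2c, the gene of the serotonin receptor 5-HT2C on the mouse X chromosome. They are 5 of the 2202 microRNA genes counted. The members were chosen by symbol and by position in the host gene, with the reads counted on the strand of each gene. The choice was made after an earlier analysis of these libraries had shown a wide difference of Mir1298 between them, so that difference and the ratios of its neighbours are given as descriptions, without a test.

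Small RNA was sequenced in 1 group of 2 libraries, numbered as biological replicates 1 and 2, of hippocampal tissue (labelled a layer of that structure) from adult male mice aged 8 to 10 months. The strain label is 5xFAD/CAST for both. 5xFAD is a transgenic mouse line used as a model of Alzheimer disease, with transgenes driven in neurons by the Thy1 promoter, and CAST is a wild-derived strain. Both libraries therefore share the transgenic background, and no untreated, non-transgenic or other-strain group was analysed here. The labels give 2 tissue records and a single donor record, so separate animals are not established, and the spread between the libraries may be technical.

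The 5-HT2C receptor is a G protein-coupled receptor for serotonin. It is found on neurons in many brain regions and is abundant in the epithelium of the choroid plexus, the tissue that secretes cerebrospinal fluid. An intronic microRNA is cut as a hairpin from the host transcript by Drosha and then trimmed by Dicer to short mature strands, one of which is loaded onto an Argonaute protein and pairs with target messages mainly through its seed, bases 2 to 8. Hairpins in introns of 1 host can thus share a primary transcript, while processing, loading and decay of each mature strand act one by one.

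The mature strands are shown here because the counts are per hairpin and do not tell which arm was read. RefSeq (GRCm38.p6, the mm10 assembly) held 8 mature strands for the 5 hairpins, all from the plus strand of chromosome X. Each is written 5′ to 3′ with the seed in capitals.
mmu-miR-764-5p: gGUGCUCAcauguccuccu
mmu-miR-764-3p: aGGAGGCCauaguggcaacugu
mmu-miR-1912-3p: cACAGAACaugcagugagaacu
mmu-miR-1264-3p: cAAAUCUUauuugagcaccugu
mmu-miR-1298-5p: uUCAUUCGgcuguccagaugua
mmu-miR-1298-3p: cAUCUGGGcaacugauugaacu
mmu-miR-448-5p: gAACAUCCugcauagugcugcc
mmu-miR-448-3p: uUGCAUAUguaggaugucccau

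The 8 seeds were all different, so the hairpins form no seed family among themselves. The longest stretch that any pair of the 5 hairpins had in common was 8 bases, and none of the 5 shared 20 bases with a microRNA gene elsewhere. The search for copies was limited to annotated microRNA genes. The hairpin of Mir1298, the member with the most reads, is shown with its 5p and 3p strands in capitals.
Mir1298 hairpin: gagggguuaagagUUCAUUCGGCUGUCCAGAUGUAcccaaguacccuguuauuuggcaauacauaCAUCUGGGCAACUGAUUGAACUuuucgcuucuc

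Only miR-764-3p had its seed in common with a mature strand of another gene in the RefSeq table, miR-7062-5p. Mir7062 had 2 reads in replicate 1 and 4 in replicate 2, below the 10 reads in both libraries that are used here to call a gene detected. On the shorter seed of bases 2 to 7, miR-448-3p matched miR-6335, whose gene Mir6335 had 0 reads in both libraries, and miR-153-3p, a microRNA enriched in neurons. That shared part is in capitals here.
mmu-miR-153-3p: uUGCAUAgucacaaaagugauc
Mir153 had 581 reads in replicate 1 and 1231 in replicate 2, whereas Mir448 had 133 and 26. The hairpins that share those 6 seed letters thus differed in opposite directions between the libraries, with log2 ratios of replicate 2 over replicate 1 of 1.26 for Mir153 and -2.17 for Mir448. On the same shorter seed, miR-448-5p matched miR-499-3p, whose hairpin gene Mir499 had 45 and 19 reads, and miR-1298-5p matched miR-12187-3p, which was not analysed here.

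Htr2c runs from 146962513 to 147197277 on the plus strand of chromosome X (mm10, GENCODE M21), a length of 235 kb, and none of the 5 hairpins overlaps an exon of any of its annotated transcripts. Mir764 (ENSMUSG00000076458.1, 147002259 to 147002366), Mir1912 (ENSMUSG00000093039.1, 147009441 to 147009527), Mir1264 (ENSMUSG00000093122.1, 147010601 to 147010686) and Mir1298 (ENSMUSG00000080331.1, 147064905 to 147065002) lie in 1 intron. It is intron 2 of the coding transcript Htr2c-201 and spans 90.8 kb. Mir448 (ENSMUSG00000065450.1, 147158210 to 147158321) lies further downstream, in intron 4 of that transcript, which spans 93.5 kb. Mir1912 and Mir1264 are neighbours, 1.07 kb apart, while 54.2 kb separate Mir1264 from Mir1298 and 93.2 kb separate Mir1298 from Mir448. Mir1298 and Mir448 sit near the 3′ ends of their introns, 7.38 kb and 11.2 kb before the next exon.

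**Figure D1:**
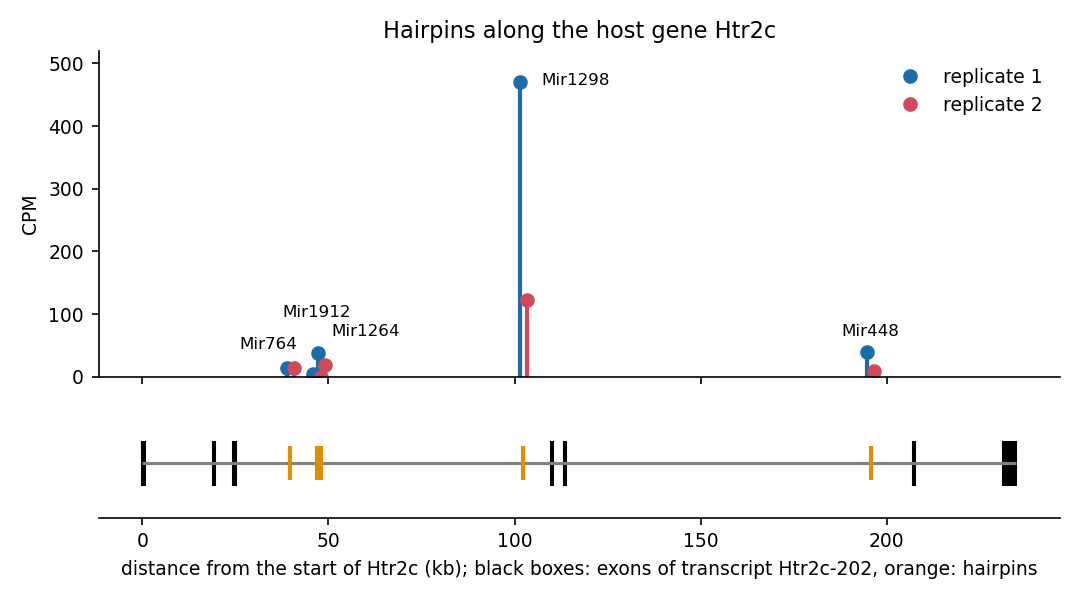
Reads per 1000000 assigned reads (CPM, y axis of the upper panel) of each hairpin against its distance in kb from the start of Htr2c (x axis), in replicate 1 (blue) and replicate 2 (red), drawn 1 kb to either side of the hairpin. The lower panel shows the exons of Htr2c-202, which has 1 more exon than Htr2c-201, and the 5 hairpins; Mir1298 stands far above the others in both libraries.

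The sequence of the hairpins varied moderately. GC content lay between 36.0% (Mir1264) and 52.7% (Mir448), which is above 10.3% and 55.8% of all microRNA genes. The predicted folding energy lay between -47.2 kcal/mol per 100 bases (Mir1298) and -39.9 (Mir1264), and 17.5% and 38.9% of all microRNA genes had a more stable predicted fold. All reads of the 5 hairpins were on the strand of the gene, with 0 reads on the opposite strand in both libraries.

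Depth was 3421977 reads assigned to microRNA genes in replicate 1 and 2820468 in replicate 2, and CPM is reads per 1000000 of these. Exact Clopper-Pearson 95% intervals are given with single-library values. They cover counting error only and treat each read as independent. Reads without molecular identifiers are not independent molecules, so the intervals can be too narrow even for that error. A count of 0 allows up to 0.877 CPM in replicate 1 and 1.06 CPM in replicate 2 (3 reads). The 15 listed neuron-enriched genes, which check for neural tissue but not for the labelled region, summed to 34067 and 35921 CPM, with 12 detected. Mir124a-1, Mir124a-2 and Mir124a-3, copies of 1 microRNA, were not detected, with 5, 0 and 0 reads in each library. Rows that name no gene, mostly reads that fit several places or none, held 64.8% and 67.0% of all reads and are not part of these levels.

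The 5 hairpins together had 1937 reads in replicate 1 and 463 in replicate 2. That is 566 CPM (541 to 592) and 164 CPM (150 to 180), or 0.0365% ± 0.0284 of assigned reads (SD, n = 2). The locus was therefore a small part of the hippocampal microRNA reads in both libraries, and the intervals of the libraries do not overlap. In bulk tissue, fewer cells that express a gene and less RNA per cell cannot be told apart.

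Of the 5 hairpins, 4 reached the minimum of 10 reads in each library, where 17.7% of all 2202 microRNA genes did. Mir1912 was the exception. With 10 reads in either library in place of both, all 5 passed, against 20.2% of all genes. Under a minimum of 100 reads in each library Mir1298 alone passed, against 10.9%.

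Mir1298 was the most abundant hairpin of the locus. It had 1611 reads in replicate 1 and 346 in replicate 2, which is 471 CPM (448 to 494) and 123 CPM (110 to 136). Replicate 1 was the higher library and the intervals do not overlap, as held for 3 of the 4 detected hairpins and for 59.6% of all detected genes. It ranked 119 among the 2202 genes in replicate 1 and 189 in replicate 2, and its mean of 297 ± 246 CPM was above that of 93.3% of all genes and 62.0% of the 389 detected genes. Its SD was close to its mean, so the mean describes neither library well.

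Mir1264 and Mir448 were next. Mir1264 had 129 and 52 reads in replicates 1 and 2, or 37.7 CPM (31.5 to 44.8) and 18.4 CPM (13.8 to 24.2). Mir448, a microRNA known from studies of fat cell differentiation, had 133 and 26 reads, or 38.9 CPM (32.5 to 46.1) and 9.22 CPM (6.02 to 13.5). Both were lower in replicate 2, and they are the other detected members whose intervals do not overlap between the libraries. In replicate 1 the hairpins were level with each other, whereas in replicate 2 Mir1264 had 2.00 times the reads of Mir448.

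Mir764 differed from those 3 in that it was nearly level between the libraries. It had 50 and 39 reads, or 14.6 CPM (10.8 to 19.3) and 13.8 CPM (9.83 to 18.9), and the intervals overlap almost fully. Mir1912 was the lowest hairpin, with 14 reads in replicate 1 (4.09 CPM, 2.24 to 6.86) and 0 in replicate 2. With 3 reads as the floor in replicate 2, it was 4.12-fold higher in replicate 1 on counts scaled by TMM (trimmed mean of M values). That value takes the 14 reads as exact, so it is not a lower limit that covers counting error in both libraries.

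**Figure D2:**
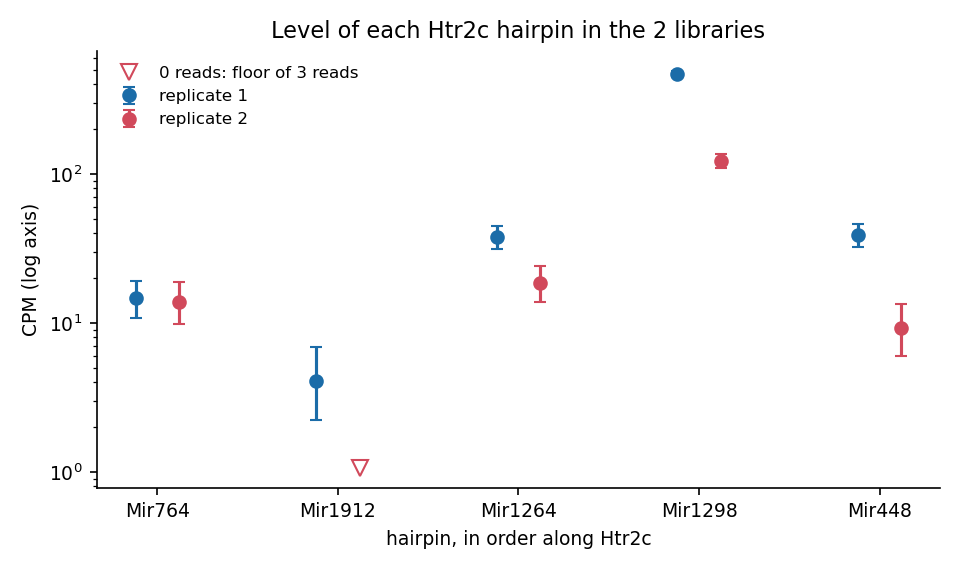
CPM of each hairpin on a log axis (y) for the 5 hairpins in order along Htr2c (x), in replicate 1 (blue) and replicate 2 (red), with exact 95% intervals for counting error as bars. The open triangle marks the 3-read floor of 1.06 CPM for Mir1912 in replicate 2; the libraries coincide at Mir764 and stand apart at Mir1264, Mir1298 and Mir448.

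By mean level the order was Mir1298, Mir1264 (28.1 ± 13.6 CPM), Mir448 (24.0 ± 20.96 CPM), Mir764 (14.2 ± 0.55 CPM) and Mir1912 (2.05 ± 2.89 CPM; SD, n = 2). By mean and SD, Mir1264 and Mir448 did not differ beyond their spread, nor did Mir448 and Mir764. The order within each of these pairs differed between the libraries. Within single libraries, the counting intervals of Mir448 and Mir764 do not overlap in replicate 1 (38.9 and 14.6 CPM). Those of Mir1264 and Mir448 do not overlap in replicate 2 (18.4 and 9.22 CPM). In the other library the intervals of each pair overlap. Mir1298 was first and Mir1912 last in both libraries. Reads of this size-selected library stand for whole short RNAs, so CPM was not divided by length. Per 100 bases of hairpin the mean levels were 303 CPM for Mir1298, 32.6 for Mir1264, 21.5 for Mir448, 13.2 for Mir764 and 2.35 for Mir1912, in the same order.

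The make-up of the locus differed between the libraries. Mir1298 held 83.2% (81.4 to 84.8) of the reads of the 5 hairpins in replicate 1 and 74.7% (70.5 to 78.6) in replicate 2. Mir764 held 2.58% (1.92 to 3.39) and 8.42% (6.06 to 11.3), and Mir1264 6.66% (5.59 to 7.86) and 11.2% (8.50 to 14.5). For these 3 the intervals do not overlap between the libraries. Shares of a fixed sum move together: in CPM Mir764 was nearly level and Mir1264 was lower in replicate 2, as given above. Mir448 held 6.87% (5.78 to 8.08) and 5.62% (3.70 to 8.12), with overlapping intervals. Mir1912 held 0.723% (0.396 to 1.21) in replicate 1 and 0 of 463 reads in replicate 2, which allows up to 0.648%.

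**Figure D3:**
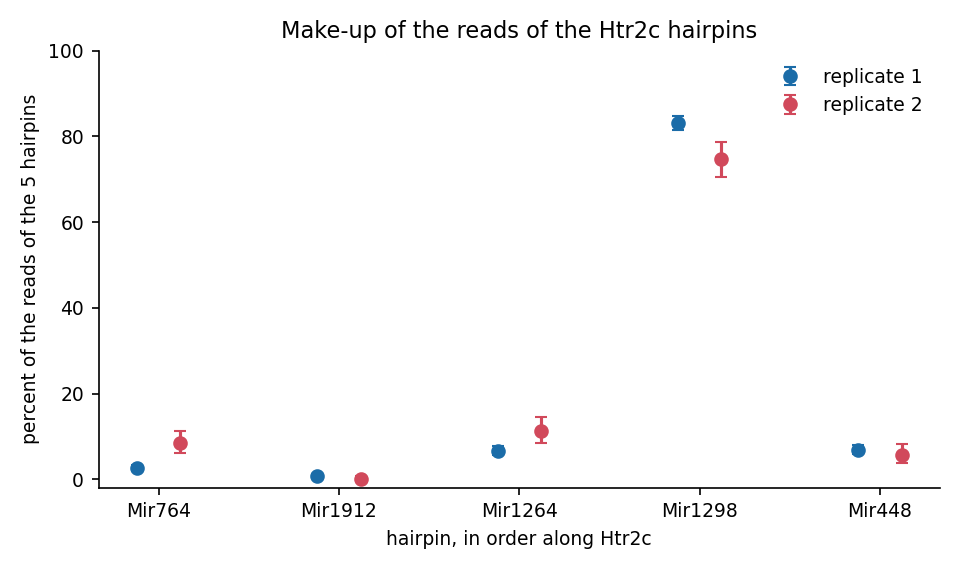
Share of the reads of the 5 hairpins that each hairpin held (y, percent) in replicate 1 (blue) and replicate 2 (red), with exact 95% intervals, or the 3-read floor for Mir1912 in replicate 2. Mir1298 held most reads in both libraries, and its share was lower in replicate 2. The shares of Mir764 and Mir1264 were higher there, while their CPM was not.

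On TMM-scaled counts, the log2 ratio of replicate 2 over replicate 1 was -2.17 (95% interval -2.84 to -1.56) for Mir448 and -2.04 (-2.21 to -1.87) for Mir1298. It was -1.13 (-1.62 to -0.66) for Mir1264 and -0.18 (-0.82 to 0.45) for Mir764. In fold terms Mir448 was 4.52-fold, Mir1298 4.11-fold and Mir1264 2.19-fold lower in replicate 2. For the reads of all 5 hairpins the log2 ratio was -1.88 (-2.03 to -1.74), and it was -1.30 (-1.62 to -0.99) without Mir1298. The direction of the sum thus did not rest on its most abundant hairpin, though its size did in part.

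All 4 detected hairpins had a ratio below 0, where 48.6% of the 389 detected genes did, and 3 of the 4 were at least 2-fold lower in replicate 2, where 10.8% of detected genes were. After the GC correction Mir1264 was at -0.77, and the count was 2 of the 4, against 9.25% of detected genes. These counts use the contrast that drew attention to the locus, so nothing is read from them. The median log2 ratio of the 4 was -1.59, and that of all detected genes was 0.053. Among the 241 genes that reached 100 reads in each library, log2 ratios had an SD of 0.80, which is a 1.74-fold difference. Differences beyond counting error were common among the 389 detected genes: the two-sided exact binomial test with Benjamini-Hochberg adjustment called 67.6% of them. The edgeR exact test called 0.514%, but its error is the spread between the same 2 libraries that it compares. Few calls follow from that design, so this share does not measure how many genes differ. The members' own calls are not used. Of the 389 detected genes, 10 had a lower ratio than Mir448, 13 a lower one than Mir1298, 32 a lower one than Mir1264 and 149 a lower one than Mir764.

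**Figure D4:**
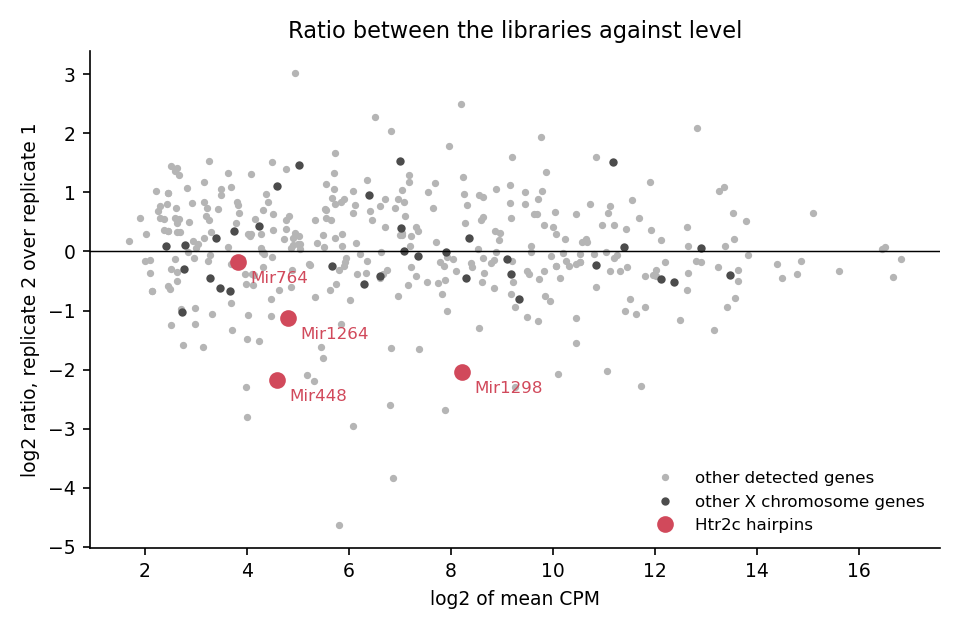
Log2 ratio of replicate 2 over replicate 1 on TMM-scaled counts (y) against the log2 of mean CPM (x) for the 389 detected microRNA genes. The 4 detected Htr2c hairpins are in red and other X chromosome genes in dark grey; Mir448 and Mir1298 lie near -2, Mir1264 near -1 and Mir764 close to 0.

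Set against each other, the hairpins had like ratios in some pairs and unlike ratios in others, by intervals that cover counting error between these 2 libraries only. Mir448 and Mir1298, in different introns and 93.2 kb apart, differed in log2 ratio by only -0.14 (95% interval from the counts -0.82 to 0.51), and Mir1298 had 12.1 times the reads of Mir448 in replicate 1 and 13.3 times in replicate 2. Mir1298 and Mir764 lie in the same intron, 62.5 kb apart, and differed by -1.86 (-2.52 to -1.19), with 32.2 and 8.87 times the reads of Mir764 for Mir1298. Mir1264 lay between, with differences of -0.91 (-1.42 to -0.38) for Mir1298 against it and -0.95 (-1.76 to -0.14) for it against Mir764.

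The annotation holds 7 microRNA genes in introns of Htr2c in all. The other 2 are not in the list above and were looked at after their values were seen. Gm22650 (146999405 to 146999509, in the intron of Mir764), which RefSeq names mir-3552, had 30 and 13 reads, or 8.77 CPM (5.91 to 12.5) and 4.61 CPM (2.45 to 7.88). Its log2 ratio was -1.03 (-2.09 to -0.044), close to that of Mir1264. Gm24627 (147106939 to 147107076, in the intron of Mir448), where RefSeq places miR-1911, had 0 reads in both libraries. With Gm22650, 5 of the 7 hairpins of the host were detected, against 17.7% of all 2202 microRNA genes. All 5 had a ratio below 0, where 48.6% of the 389 detected genes did, and the interval of Mir764 included 0. Nothing is read from these counts.

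Other host genes give a scale for this spread. In 9 other protein-coding genes at least 2 hairpins were detected in introns on the same strand. The range of log2 ratios within a host had a median of 0.77 over these 9, against 2.00 over the detected Htr2c hairpins. Of the 9 hosts, 1 had a wider range, Sfmbt2 (3.11), while Clcn5 and Smc4 came close, at 1.91 each. The 3 with the most detected hairpins were Sfmbt2, with 8 hairpins of repeated sequence that share stretches with copies, Clcn5, with 5, and Ttll10, with 3. The Clcn5 hairpins, also on the X chromosome, ranged from -0.38 (Mir532) to 1.53 (Mir500). Those of Ttll10, which hosts the epithelial microRNAs Mir200a, Mir200b and Mir429, lay close together, from -2.30 to -1.80. Mean levels spanned 20.9-fold between the 4 detected members, and 3 of the 9 hosts had a wider span, Sfmbt2 and Nfyc (24.3-fold) among them. With Gm22650 counted in, as all detected hairpins of the other hosts are, the span was 44.4-fold and 0 of the 9 were wider. Hosts with fewer hairpins have less room for a range, so these ranges are a description.

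**Figure D5:**
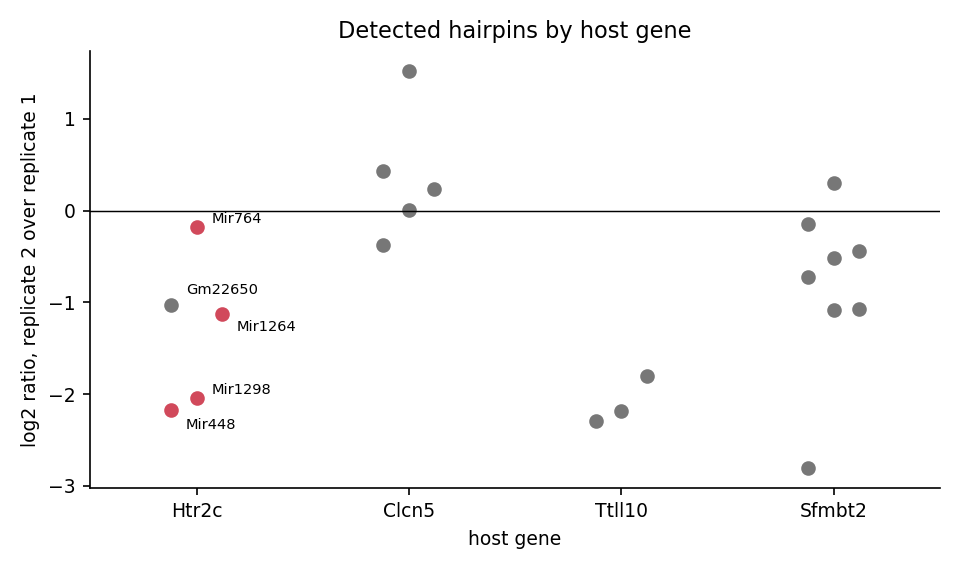
Log2 ratio of replicate 2 over replicate 1 on TMM-scaled counts (y) for each detected hairpin in introns of Htr2c and of the 3 other host genes with the most detected hairpins (x), points spread sideways for sight. The Htr2c hairpins span 2.00 on this scale, the Clcn5 hairpins range from -0.38 to 1.53 and the Ttll10 hairpins lie close to Mir448 and Mir1298.

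On the X chromosome 137 other microRNA genes were counted, and 33 of them (24.1%) were detected. The most abundant were Mir652 (11410 ± 1680 CPM), Mir221 (7669 ± 567 CPM) and Mir361 (5335 ± 1081 CPM), and 12 of the 33 had a higher mean level than Mir1298. Their median log2 ratio was -0.075, with a range from -1.03 to 1.53. No other detected gene of this chromosome had a ratio as low as that of Mir1298, Mir448 or Mir1264, and the lowest was Gm22650, in the same host.

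Genes with the most similar values in the 2 libraries were sought among 303 detected genes outside Htr2c without a shared stretch, by Euclidean distance on log2(CPM + 1). With 2 libraries such likeness is weak, and it carries no statement on function or control. Nearest to Mir1298 were Mir142, a blood cell microRNA (1085 and 477 reads, distance 0.73), Mir380 (1400 and 192 reads, 0.86) and Mir20a (1801 and 645 reads, 0.91). Nearest to Mir448 were Mir3083 (79 and 25 reads, 0.73), Mir200a (89 and 16 reads, 0.83) and Mir200b (222 and 43 reads, 0.99). Mir1264 was nearest to Mir18 (0.37), Mir34b (0.39) and Mir5099 (0.60), and Mir764 to Gm24589 (0.11), Mir1968 (0.23) and Mir3097 (0.31). None of these 12 genes lies on the X chromosome.

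In several lists of cell type markers most detected genes were lower in replicate 2, where 48.6% of all 389 detected genes had a ratio below 0. In the choroid plexus and ependyma list 4 of 5 detected genes were lower there, or 3 of 5 with library totals in place of TMM, where Mir211 changed sign. The summed level of its 7 genes was 3416 CPM in replicate 1 and 1638 CPM in replicate 2, a log2 ratio of -1.16 for the sum. Mir34c and Mir204 held most of these reads, and the median log2 ratio of the detected genes was -0.60. Mir34c, a microRNA of ciliated cells, had 6997 and 2114 reads and Mir204, a choroid plexus and eye microRNA, 4214 and 2084. Mir211 (251 and 215 reads) was nearly level, Mir449a (109 and 139 reads) was higher in replicate 2 and Mir449b was at 0 in both.

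In the epithelial list all 6 detected genes were lower in replicate 2, and the sum of its 8 genes was 712 and 111 CPM, a log2 ratio of -2.78, with none at 0 in both. The endothelial and mural list summed to 21670 and 13158 CPM, with 3 of 3 detected genes lower. Their log2 ratios were -0.18 for Mir126a, -1.32 for Mir143 and -2.30 for Mir145a. The microglia and leukocyte list summed to 5207 and 4484 CPM, with 6 of 6 lower and Mir142b at 0. The ratios of these 6 lay between -1.01 (Mir142) and -0.12 (Mir342). The oligodendrocyte list summed to 5027 and 6671 CPM, with 1 of 2 lower. In the neuron-enriched list 3 of 12 detected genes were lower and 9 higher. The log2 ratio of the sum was -0.022, or 0.076 with library totals, while the median of the detected genes was 0.52. With DESeq2 size factors, 4 of these 12 were lower, Mir137 among them. The median log2 ratio of detected genes was -2.45 in the epithelial list and -1.32 in the endothelial and mural list. It was -0.46 in the microglia and leukocyte list and 0.30 in the oligodendrocyte list. The part of any of these cell types in the ratios of the Htr2c hairpins was not tested.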

How the data were processed

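For each of the 2 libraries the authors deposited a table of raw counts, with columns for unstranded, same-strand and opposite-strand reads of every microRNA gene. Reads were placed on mm10 and counted against GENCODE M21, per the notes that accompany the deposited tables. Aligner, counter, trimming and the sharing of reads between identical copies are each not given in the sources used here. Members and lists were chosen with earlier results of these data known. The 4 rows that name no gene were left out of library sizes.

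Symbols, introns and hairpin sequences for GC content came from GENCODE M21, mature strands from RefSeq (GRCm38.p6), and folding energies from RNAfold 2.7.2. TMM factors came from edgeR 4.0.16 (R 4.3.3) over genes that reached 10 reads in each library. A quasi-likelihood test needs a contrast, which 1 group does not give. The exact binomial test used a threshold of 0.05 after adjustment. It was tried only on simulated counts with counting error alone, which leaves out the spread between the libraries. Ratio intervals are exact, from the 2 counts, and those of a difference between hairpins are exact conditional odds ratio intervals. Named genes are the 5 members, the 3 nearest genes per detected member, the 3 other hosts with the most detected hairpins, the 3 most abundant other X chromosome genes, genes that share a seed, and marker genes. Smc4, Nfyc and Huwe1 are also named, for their range or for a shared stretch. Alternatives were library size, count column, count minimum, scaling, GC correction and test.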

Additional observations from a re-analysis of the deposited data

How the results depend on the processing

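The summed share of the 5 hairpins was 0.0164% in replicate 2 alone and 0.0566% in replicate 1 alone, and 0.0127% as a mean share of all reads of the tables. With at least 100 reads in both libraries, 1 of the 5 hairpins was detected in place of 4. After the straight-line correction for GC content the log2 ratio of the summed reads was -1.72 in place of -1.88, and over all alternatives the ratio lay between -2.27 and -2.08 for Mir448, -2.13 and -1.88 for Mir1298, -1.22 and -0.77 for Mir1264 and -0.27 and -0.049 for Mir764, with no change of sign. The edgeR exact test, which takes its error from the same 2 libraries, called 2 genes different (23 at an unadjusted p under 0.05) in place of 263. Leaving out a library leaves no ratio between libraries. No paired analysis was possible because there is 1 group. Depth limits Mir1912 most, at 14 reads and 0.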
